A study of Mus musculus with 12 samples.

Results

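Macrophage, chemokine and leukocyte genes were followed in the livers of wild-type (WT) mice and of Pctp-/- mice, which lack phosphatidylcholine transfer protein (PC-TP) in the whole body. The 54 genes were taken by symbol from a table of 35275 mouse genes, as a list of Kupffer cell, recruited macrophage, chemokine and lymphocyte genes. The rule names the genes and uses no measured value, and the list was drawn up with earlier results of these data known. All 54 were found through their Ensembl identifiers. Male mice of each genotype were fed either chow, the normal diet (ND), or a methionine and choline-deficient (MCD) diet, which is used to injure the liver. RNA of whole liver was sequenced from 3 mice in each of the 4 groups, so that 12 livers gave 12 libraries. The strain, age and length of feeding of these mice are not given in the sources used here. Expression was given as FPKM, the fragments of a gene per kilobase of its length scaled to the number of fragments mapped. Values of mice 1, 2 and 3 of a group are given below in that order, and the numbers name different mice in each group.

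The liver holds its own macrophages, the Kupffer cells, which line the sinusoids and clear particles, lipids and dying cells from the blood. In injured liver, monocytes are drawn in from the blood by chemokines and become macrophages, and those that take up lipid carry a recognisable set of genes that includes Trem2, Gpnmb, Lgals3 and Cd9. Chemokines are small secreted proteins that guide leukocytes through receptors on the cell surface, and liver macrophages and other cells make them after signals from Toll-like receptors and cytokines. Feeding a diet without methionine and choline is known to bring fat, cell injury and inflammatory cells to the mouse liver.

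Each library held 30486576 to 55179468 uniquely mapped reads, and a number of reads per gene was not used. The share of reads that mapped uniquely was 77.59 to 79.41% in the chow livers and 85.66 to 87.55% in the MCD livers. The listed error rate was 0.03% for every chow library and 0.01% for every MCD library. The quality measure Q30 ranged from 86.29 to 87.1% among chow libraries and from 93.47 to 94.58% among MCD libraries. The labels name no sequencing set, and whether the diets were sequenced apart was not tested. Because these measures split by diet, a difference in sequencing cannot be told apart from diet. The labelled tissue was checked against 7 hepatocyte markers, whose summed FPKM was 41340 to 46420 in the chow livers and 53560 to 74640 in the MCD livers. Most of each sum was Alb, at 26290 to 29920 on chow and 41400 to 61590 on MCD. Pctp, the deleted gene, had an FPKM of 2.25, 1.21 and 2.65 in WT and 0.566, 0.364 and 0.330 in Pctp-/- livers on chow, and of 7.90, 5.10 and 3.61 and 0.156, 0.329 and 0.293 on MCD, lower in each Pctp-/- liver than in every WT liver of its diet. By the test described below its log2 fold change was -1.07 on chow (adjusted p = 0.15) and -2.33 on MCD (adjusted p = 0.000624). Some livers stood apart across the macrophage, chemokine and leukocyte genes as a whole. WT MCD mouse 1 lay above its group mean for 40 of the 49 genes tested, and WT MCD mouse 2 for 2. On chow, mouse 2 lay above its group mean for 6 genes in WT and for 4 in Pctp-/-, and Pctp-/- mouse 1 for 42. WT chow mouse 1 did so for 39 and Pctp-/- chow mouse 3 for 37. Of all genes tested, 59.6% and 53.3% lay above the group mean in WT MCD mice 1 and 2. On chow it was 37% and 52.9% in mouse 2 of WT and Pctp-/-. It was 64% in WT chow mouse 1, and 40.4% and 61.6% in Pctp-/- chow mice 1 and 3. The 3 Pctp-/- MCD livers lay above their mean for 21 to 32 genes. Results that change without one of these livers are given with and without it.

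On the MCD diet most macrophage and chemokine genes were higher in both genotypes, with the largest fold changes on the scale used in Gpnmb and Lgals3, while MHC class II and lymphocyte genes did not pass the test. The test was limma on log2(FPKM + 1), applied to genes whose FPKM averaged 0.5 or more across the 12 livers. On this scale the changes of weakly expressed genes come out too small. A gene was called changed at a Benjamini-Hochberg adjusted p under 0.05 over all 12466 genes tested. In WT livers, 39 of the 49 genes tested were called higher on MCD, where 34.5% of all genes tested were called higher, and 0 were called lower, where 22.5% of all genes were. In Pctp-/- livers, 28 were called higher and 0 lower, beside 26% and 24.4% of all genes tested. The median log2 fold change was 1.26 in WT and 0.81 in Pctp-/- livers over these genes, and 0.11 and 0.04 over all genes tested. The FPKM of all 3 MCD livers lay above that of all 3 chow livers for 38 of the 49 genes in WT and for 30 in Pctp-/-, beside 37.7% and 32.3% of all genes tested. In whole liver RNA, more cells of a type and more RNA per cell cannot be told apart.

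The filter on low values bears on these counts. It removed 5 genes, Ccr2, Ccl22, Tnf, Cd3e and Cd8a, and 14 of the 49 that passed it had a mean under 0.5 in the chow livers and so passed through the MCD livers. Over all 22396 genes above 0 in at least 1 liver, where all 54 genes were tested, 38 were called higher on MCD in WT and 0 lower, beside 21.3% and 13.1% of all genes in that fit. In Pctp-/- livers 30 were called higher and 0 lower, beside 15.6% and 13.3%.

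**Figure D1:**
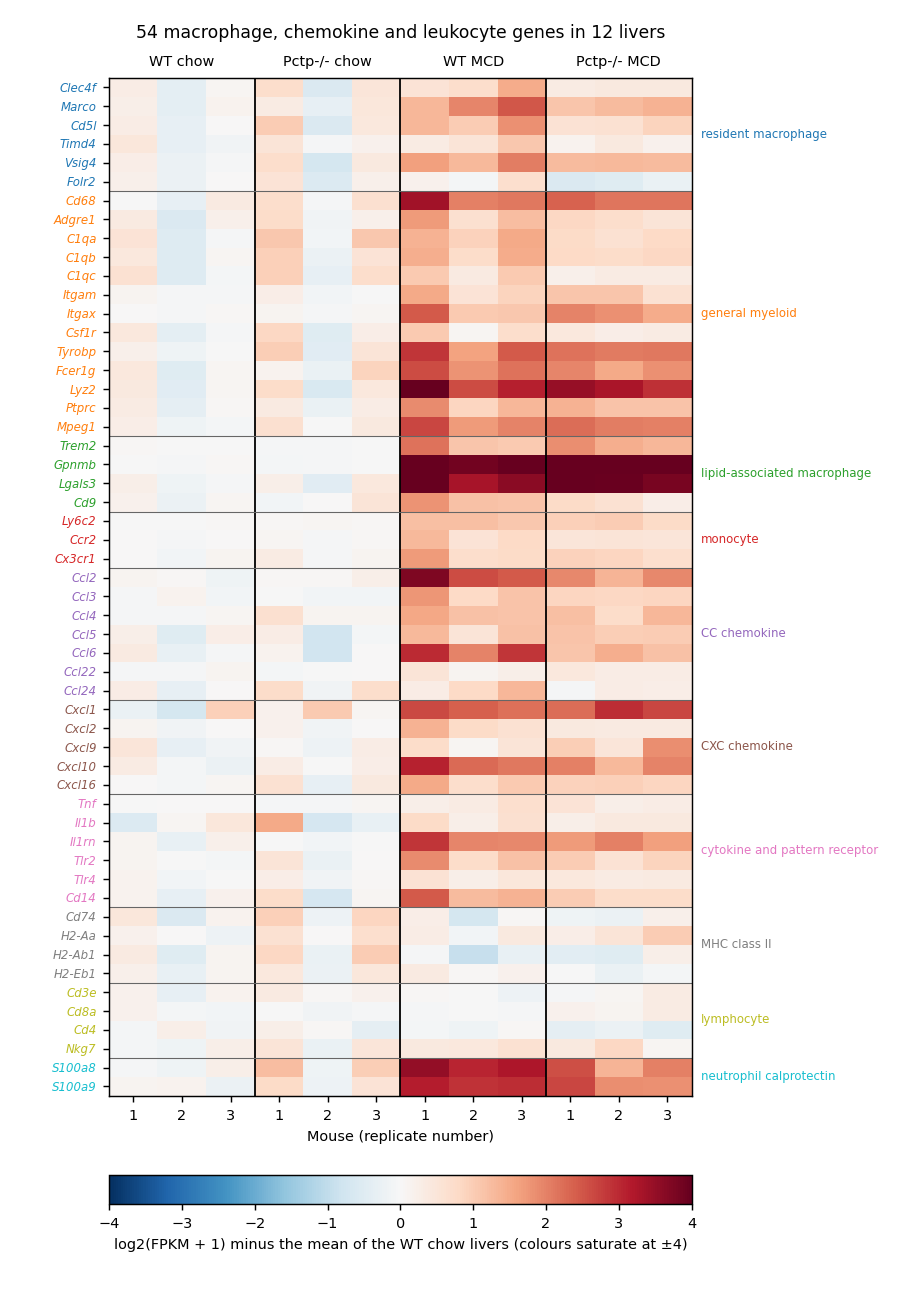
Heat map of the 54 genes (rows, grouped and coloured by role) in the 12 livers (columns), as log2(FPKM + 1) minus the mean of the 3 WT chow livers. Red is higher and blue lower. The MCD columns are red for most macrophage, chemokine and calprotectin genes, and pale for MHC class II and lymphocyte genes.

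Among the lipid-associated macrophage genes, Gpnmb and Lgals3 had the largest log2 fold changes of FPKM + 1 of the list in both genotypes. Gpnmb, a transmembrane glycoprotein of macrophages with many lysosomes (ENSMUSG00000029816, chromosome 6, 49036546 to 49070929, plus strand), had an FPKM on chow of 0.0332, 0.0197 and 0.0848 in WT and 0, 0.0201 and 0.0364 in Pctp-/- livers. On MCD its FPKM was 69.9, 14.2 and 16.5 in WT and 51.9, 50.0 and 32.0 in Pctp-/- livers. The chow livers were at or close to 0 and none overlapped an MCD liver, and among the WT MCD livers mouse 1 was far above the others. The log2 fold change was 4.67 in WT (standard error 0.43, adjusted p = 3.82e-06) and 5.45 in Pctp-/- livers (standard error 0.43, adjusted p = 1.62e-06). Lgals3, which encodes the lectin galectin-3 (ENSMUSG00000050335, chromosome 14, 47367751 to 47386160, plus strand), had an FPKM on chow of 2.04, 1.32 and 1.499 in WT and 2.03, 0.914 and 2.49 in Pctp-/- livers. It stood at 82.5, 24.5 and 30.8 in WT and 45.6, 39.6 and 34.8 in Pctp-/- livers on MCD. No MCD liver overlapped a chow liver, and the log2 fold changes were 3.97 in WT (standard error 0.36, adjusted p = 3.05e-06) and 3.90 in Pctp-/- livers (standard error 0.36, adjusted p = 4.78e-06). Trem2, the lipid-sensing receptor that signals through the adaptor Tyrobp, rose in WT by a log2 fold change of 1.44 and in Pctp-/- livers by 1.58, from an FPKM of at most 0.0791 in any chow liver to 3.68, 1.24 and 1.14 in WT and 2.74, 1.86 and 1.59 in Pctp-/- livers on MCD. Cd9, a tetraspanin that many other cells also express, rose by 1.37 in WT livers, while in Pctp-/- livers its log2 fold change was 0.39 (95% interval -0.06 to 0.84, adjusted p = 0.136), and without Pctp-/- chow mouse 3 it was called higher there (0.57, adjusted p = 0.0433).

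General myeloid genes rose in 12 of 13 cases in WT and 8 of 13 in Pctp-/- livers. Lyz2, the lysozyme of macrophages (ENSMUSG00000069516, chromosome 10, 117277331 to 117282321, minus strand), had the highest FPKM of the 54 genes on MCD. Its FPKM on chow was 25.5, 13.9 and 20.4 in WT and 32.9, 12.2 and 26.5 in Pctp-/- livers, and on MCD 337, 124 and 174 in WT and 226, 196 and 152 in Pctp-/- livers. The diets did not overlap in either genotype, and the log2 fold change was 3.26 in WT (standard error 0.38, adjusted p = 2.38e-05) and 3.04 in Pctp-/- livers (standard error 0.38, adjusted p = 5.22e-05). Cd68, a lysosomal glycoprotein of macrophages (ENSMUSG00000018774, chromosome 11, 69664213 to 69666153, minus strand), had an FPKM on chow of 3.28, 2.43 and 4.56 in WT and 6.10, 3.22 and 5.79 in Pctp-/- livers. On MCD it reached 43.1, 16.5 and 17.9 in WT and 21.4, 18.1 and 18.2 in Pctp-/- livers. All MCD livers were above all chow livers, with log2 fold changes of 2.495 in WT (standard error 0.32, adjusted p = 4.07e-05) and 1.78 in Pctp-/- livers (standard error 0.32, adjusted p = 0.000604).

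Mpeg1, the pore-forming perforin-2 of phagocytes (ENSMUSG00000046805, chromosome 19, 12460779 to 12465283, plus strand), had an FPKM on chow of 12.6, 9.10 and 9.69 in WT and 16.6, 10.2 and 13.9 in Pctp-/- livers. Its FPKM on MCD was 72.1, 36.3 and 44.3 in WT and 52.5, 46.2 and 44.9 in Pctp-/- livers. It was higher in every MCD liver than in every chow liver, with log2 fold changes of 2.13 in WT (standard error 0.23, adjusted p = 1.08e-05) and 1.77 in Pctp-/- livers (standard error 0.23, adjusted p = 5.75e-05). Tyrobp, the signalling adaptor of Trem2 and other myeloid receptors (ENSMUSG00000030579, chromosome 7, 30413760 to 30417585, plus strand), had an FPKM on chow of 11.3, 8.48 and 9.71 in WT and 20.3, 6.90 and 14.4 in Pctp-/- livers. On MCD its FPKM was 77.6, 31.6 and 58.0 in WT and 47.0, 44.2 and 45.9 in Pctp-/- livers. The diets did not overlap, and the log2 fold change was 2.31 in WT (standard error 0.34, adjusted p = 0.000116) and 1.77 in Pctp-/- livers (standard error 0.34, adjusted p = 0.000974).

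The Fc receptor adaptor Fcer1g, the integrin chains Itgam and Itgax and the leukocyte phosphatase Ptprc were called higher in both genotypes, with log2 fold changes of 0.99 to 2.19 in WT and 0.92 to 1.71 in Pctp-/- livers. Adgre1, an adhesion receptor on the surface of mouse macrophages, rose by 1.19 in WT livers, and its log2 fold change in Pctp-/- livers was 0.42 (adjusted p = 0.269). The 3 chains of complement C1q, which tissue macrophages make, were called higher in WT livers, C1qa by 1.28, C1qb by 1.22 and C1qc by 0.82. In Pctp-/- livers their log2 fold changes were 0.05, 0.37 and -0.16, and none was called. C1qc lay at the threshold in WT livers (adjusted p = 0.0497) and was called in 8 of 23 alternative fits, and it was lost without WT chow mouse 2 or 3, WT MCD mouse 1 or 3, Pctp-/- chow mouse 3 or any 1 Pctp-/- MCD mouse. Csf1r, the receptor for the macrophage growth factor CSF-1, was called in neither genotype, with a log2 fold change of 0.61 (95% interval -0.08 to 1.30) in WT and 0.13 (95% interval -0.56 to 0.82) in Pctp-/- livers, and without WT MCD mouse 2 it was called higher in WT livers (0.88, adjusted p = 0.0407).

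Markers of resident Kupffer cells had log2 fold changes of 0.26 to 1.92 in WT and -0.50 to 1.15 in Pctp-/- livers. In WT livers 5 of 6 were called higher and in Pctp-/- livers 2 of 6. Marco, a scavenger receptor for bacteria and particles, had an FPKM of 3.67, 2.02 and 3.38 in WT chow and 8.97, 14.3 and 20.9 in WT MCD livers, and of 3.98, 2.18 and 4.45 in Pctp-/- chow and 7.57, 8.55 and 9.29 in Pctp-/- MCD livers. It rose by 1.92 in WT and 1.10 in Pctp-/- livers on the log2 scale. Vsig4, a receptor for complement C3 fragments, rose by 1.66 in WT and by 1.15 in Pctp-/- livers. Neither gene's MCD livers overlapped its chow livers in either genotype.

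Clec4f, a lectin that in mouse liver marks Kupffer cells, had an FPKM of 41.4, 25.6 and 35.6 in WT chow and 49.6, 55.3 and 96.2 in WT MCD livers, and of 54.9, 21.9 and 47.2 in Pctp-/- chow and 41.9, 44.5 and 44.2 in Pctp-/- MCD livers. Its groups did not overlap in WT, where it rose by 0.92 (adjusted p = 0.0246), and overlapped in Pctp-/-, where the log2 fold change was 0.17 (95% interval -0.51 to 0.85). Cd5l, a secreted scavenger protein of Kupffer cells, rose by 1.40 in WT livers, with a log2 fold change of 0.40 in Pctp-/- livers (called without Pctp-/- chow mouse 1, at 0.77), and Timd4, a receptor for phosphatidylserine on dying cells, rose by 0.64 in WT, with 0.02 in Pctp-/- livers. The call of Clec4f in WT was lost without WT chow mouse 2 or without WT MCD mouse 3, and that of Timd4 without WT chow mouse 2 or 3 or WT MCD mouse 3. Folr2, folate receptor beta, was called in neither genotype, at 0.26 in WT and -0.50 in Pctp-/- livers, and without Pctp-/- chow mouse 2 it was called lower on MCD in Pctp-/- livers (-0.81, adjusted p = 0.00989).

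Monocyte genes were low in every chow liver. Ly6c2, a surface protein of inflammatory monocytes, had an FPKM of 0.0471, 0.0279 and 0.0721 in WT chow and 1.43, 1.40 and 1.24 in WT MCD livers, and of 0.0927, 0.114 and 0.0774 in Pctp-/- chow and 1.03, 1.13 and 0.777 in Pctp-/- MCD livers. It rose by 1.17 in WT and 0.85 in Pctp-/- livers, with no overlap of the diets. Ly6c2 has a near-identical neighbour, Ly6c1, and the counting could have split reads between them. Cx3cr1, the fractalkine receptor, rose by 1.05 in WT and 0.68 in Pctp-/- livers, and its annotated span overlaps other genes on both strands. Without Pctp-/- chow mouse 2 or 3 or Pctp-/- MCD mouse 1 or 2 the call of Cx3cr1 in Pctp-/- livers was lost. Ccr2, the receptor for Ccl2, was under the filter, with an FPKM of 0.0627, 0.0139 and 0.0721 in WT chow, 1.56, 0.520 and 0.823 in WT MCD, 0.102, 0.0142 and 0.0774 in Pctp-/- chow and 0.466, 0.488 and 0.469 in Pctp-/- MCD livers, and was called higher on MCD in both genotypes over all genes above 0 (log2 fold change 0.87 and 0.47).

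Among the CC chemokines, all 6 tested were called higher on MCD in WT and 5 in Pctp-/- livers. Ccl2, the main chemokine for monocytes that carry Ccr2 (ENSMUSG00000035385, chromosome 11, 82035571 to 82037453, plus strand), had an FPKM on chow of 0.499, 0.409 and 0.235 in WT and 0.408, 0.418 and 0.631 in Pctp-/- livers. Its FPKM on MCD was 17.3, 7.49 and 6.62 in WT and 4.22, 2.51 and 4.19 in Pctp-/- livers. Every MCD liver was above every chow liver, and every Pctp-/- MCD liver was below every WT MCD liver. The log2 fold change on MCD was 2.94 in WT (standard error 0.27, adjusted p = 3.92e-06) and 1.62 in Pctp-/- livers (standard error 0.27, adjusted p = 0.00043). Ccl6, a chemokine of mouse macrophages (ENSMUSG00000018927, chromosome 11, 83587882 to 83593087, minus strand), had an FPKM on chow of 2.19, 1.04 and 1.43 in WT and 1.80, 0.477 and 1.54 in Pctp-/- livers, and on MCD of 18.8, 8.94 and 17.1 in WT and 4.47, 5.88 and 4.68 in Pctp-/- livers. The pattern was that of Ccl2, without overlap of the diets or of the genotypes on MCD, and the log2 fold change on MCD was 2.61 in WT (standard error 0.28, adjusted p = 1.32e-05) and 1.45 in Pctp-/- livers (standard error 0.28, adjusted p = 0.00119). A gene lies on the opposite strand over each of Ccl2 and Ccl6, and without stated use of strand their reads cannot be told apart.

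Ccl3, Ccl4 and Ccl5, which attract macrophages and T cells, rose by 1.23, 1.28 and 0.99 in WT and by 0.93, 0.81 and 1.23 in Pctp-/- livers, and the call of Ccl5 in WT was lost without WT chow mouse 2. Ccl4 was listed at 0 in 2 WT chow livers and Ccl3 in 1 WT and 2 Pctp-/- chow livers. Ccl24, a ligand of the eosinophil receptor Ccr3, was called higher in WT livers, by 0.82 (adjusted p = 0.0249), with a log2 fold change of -0.25 in Pctp-/- livers, and its WT call was lost without WT chow mouse 2 or 3 or WT MCD mouse 2 or 3. Ccl22, a ligand of Ccr4, was under the filter, with an FPKM of at most 0.545 in any liver, and over all genes above 0 it was called higher on MCD in both genotypes (0.29 in WT and 0.34 in Pctp-/- livers).

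CXC chemokines rose in 4 of 5 cases in each genotype, with Cxcl1, Cxcl10 and Cxcl16 in both. Cxcl1, a ligand of the neutrophil receptor Cxcr2 (ENSMUSG00000029380, chromosome 5, 90891241 to 90893115, plus strand), had an FPKM on chow of 8.69, 6.27 and 21.9 in WT and 12.1, 23.4 and 11.5 in Pctp-/- livers. On MCD its FPKM was 72.7, 61.0 and 52.7 in WT and 54.03, 90.1 and 73.1 in Pctp-/- livers. The diets did not overlap and the genotypes did, and the log2 fold change on MCD was 2.42 in WT (standard error 0.37, adjusted p = 0.000178) and 2.18 in Pctp-/- livers (standard error 0.37, adjusted p = 0.000458). Cxcl2, which binds the same receptor, rose by 0.93 in WT livers, with a log2 fold change of 0.36 in Pctp-/- livers (adjusted p = 0.112). Cxcl10, a ligand of the T cell receptor for chemokines Cxcr3, had an FPKM of 0.961, 0.478 and 0.354 in WT chow and 12.3, 6.58 and 5.81 in WT MCD livers, and of 0.954, 0.558 and 0.885 in Pctp-/- chow and 5.40, 2.89 and 5.21 in Pctp-/- MCD livers. It rose by 2.48 in WT and by 1.58 in Pctp-/- livers. Cxcl16, which binds Cxcr6, rose by 1.09 in WT and 0.69 in Pctp-/- livers, and its call in Pctp-/- livers was lost without Pctp-/- chow mouse 2 or any 1 of the 3 Pctp-/- MCD mice. Cxcl9, the other Cxcr3 ligand here, was called higher in Pctp-/- livers, by 1.06 (adjusted p = 0.0151), and not in WT (0.45, adjusted p = 0.246), and without Pctp-/- chow mouse 2 or Pctp-/- MCD mouse 3, whose FPKM of 6.75 was the highest, it was called in neither.

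The DNA just before the start of Cxcl1, Cxcl2 and Cxcl10 is shown. Of the 40 genes with a promoter window, only these held a match to GGANTTTCC, 1 form of the NF-kB motif, where N is any base. NF-kB sites are the type through which Toll-like receptor and cytokine signals act on many chemokine genes. Other forms of the site were not searched, so unmarked bases may hold one. RefSeq promoter windows (GRCm38.p6) were found for 40 of the 54 genes, and the 250 bases before the start were searched on both strands for 8 motifs chosen with the values known. Some genes had more than 1 window, so the 40 genes had 45 windows. The NF-kB motif GGANTTTCC was in 3 of the 40 genes and 6.67% of their windows, beside 1.07% of 32851 windows of all genes. The last 200 bases before the start are printed 5′ to 3′ on the gene's strand, with the match in capitals, at chr5:90891045-90891244 (plus strand), chr5:90903699-90903898 (plus strand) and chr5:92348890-92349089 (minus strand). The start meant here is that of RefSeq. The GENCODE M21 gene start lies inside the printed bases, at 90891241 for Cxcl1 and 90903871 for Cxcl2.
Cxcl1: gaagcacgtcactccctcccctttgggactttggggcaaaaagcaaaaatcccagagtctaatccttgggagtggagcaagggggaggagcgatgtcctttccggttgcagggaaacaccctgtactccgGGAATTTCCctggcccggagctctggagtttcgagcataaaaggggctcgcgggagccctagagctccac
Cxcl2: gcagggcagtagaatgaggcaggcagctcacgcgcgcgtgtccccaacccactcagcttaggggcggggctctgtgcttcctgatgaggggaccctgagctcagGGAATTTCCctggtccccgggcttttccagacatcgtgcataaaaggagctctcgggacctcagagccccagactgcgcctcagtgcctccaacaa
Cxcl10: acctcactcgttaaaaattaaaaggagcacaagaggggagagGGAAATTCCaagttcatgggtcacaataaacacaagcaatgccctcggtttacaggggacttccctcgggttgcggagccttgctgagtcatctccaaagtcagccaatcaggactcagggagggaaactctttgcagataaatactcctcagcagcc
Counted back from the start, the match lies at -70 to -62 in Cxcl1, at -96 to -88 in Cxcl2 and at -158 to -150 in Cxcl10, and Cxcl1 and Cxcl2 share its letters, GGAATTTCC, while Cxcl10 has GGAAATTCC. The AP-1 motif TGANTCA was in 6 of the 40 genes (Cd68, Cxcl10, Folr2, Il1rn, Itgax and Trem2), 13.3% of their windows and 6.75% of all windows. For PU.1, GAGGAAGT was in 3 genes (C1qc, Ly6c2 and S100a8), 8.89% of their windows and 2.44% of all windows. Its part GAGGAA was in 15 genes, 35.6% and 23.3%. An interferon response element part, TTCNNTTTC, was in 7 genes, 15.6% and 7.13%. TTGCNNAA for C/EBP was in 3 genes, 6.67% and 9.56%, TCANGTG in 5 genes, 11.1% and 12.2%, and the E-box CACGTG in 0 genes and 6.02% of all windows. The first share in each case is over the 45 windows of the 40 genes. A match is a description of the letters and was not tested as a binding site.

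Cytokines and pattern receptors were mixed. Il1rn, the antagonist of the IL-1 receptor (ENSMUSG00000026981, chromosome 2, 24336853 to 24351494, plus strand), had an FPKM on chow of 0.459, 0.0906 and 0.547 in WT and 0.321, 0.247 and 0.335 in Pctp-/- livers, and on MCD of 8.78, 4.26 and 4.10 in WT and 3.35, 4.45 and 3.24 in Pctp-/- livers. No diet groups overlapped, and it rose by 2.25 in WT (standard error 0.23, adjusted p = 7.23e-06) and by 1.84 in Pctp-/- livers (standard error 0.23, adjusted p = 4.24e-05). Il1b, which encodes the cytokine that Il1rn opposes, was called in neither genotype. Its FPKM was 0.868, 1.93 and 2.80 in WT chow, 3.64, 2.24 and 3.33 in WT MCD, 6.93, 0.731 and 1.22 in Pctp-/- chow and 2.24, 2.64 and 2.58 in Pctp-/- MCD livers, with Pctp-/- chow mouse 1 above every other liver. Without that mouse Il1b was called higher on MCD in Pctp-/- livers (0.83, adjusted p = 0.0194). The Toll-like receptors Tlr2 and Tlr4 and the lipopolysaccharide co-receptor Cd14 rose in WT livers by 1.26, 0.42 and 1.71. Tlr2 also rose in Pctp-/- livers, by 0.73, a call that was lost without Pctp-/- chow mouse 2 or 3 or Pctp-/- MCD mouse 1 or 3, while Tlr4 and Cd14 had log2 fold changes of 0.31 and 0.78 there (adjusted p = 0.0743 and 0.0795). The WT call of Tlr4 was lost without WT chow mouse 2, and Cd14 was called in Pctp-/- livers without Pctp-/- chow mouse 1 (1.14, adjusted p = 0.014) or without WT MCD mouse 1 (adjusted p = 0.0378). Tnf was under the filter at 0.0257, 0.0456 and 0.0393 in WT chow, 0.224, 0.309 and 0.641 in WT MCD, 0, 0 and 0.0844 in Pctp-/- chow and 0.519, 0.210 and 0.262 in Pctp-/- MCD livers, and over all genes above 0 it was called higher on MCD in both genotypes (0.41 and 0.37).

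Both calprotectin genes rose in each genotype, with fold changes that were larger in WT livers by a difference that did not pass the test. S100a8 (ENSMUSG00000056054, chromosome 3, 90668978 to 90670035, plus strand) had an FPKM on chow of 0.107, 0 and 0.329 in WT and 1.65, 0 and 1.24 in Pctp-/- livers, and on MCD of 11.9, 8.40 and 9.65 in WT and 5.84, 1.93 and 3.60 in Pctp-/- livers. It was listed at 0 in 1 chow liver of each genotype, and on MCD each Pctp-/- liver was below each WT liver. Its log2 fold change on MCD was 3.26 in WT (standard error 0.35, adjusted p = 1.1e-05) and 1.32 in Pctp-/- livers (standard error 0.35, adjusted p = 0.00742). S100a9, its partner in the calprotectin complex (ENSMUSG00000056071, chromosome 3, 90692632 to 90695721, minus strand), had an FPKM on chow of 0.405, 0.432 and 0.124 in WT and 1.25, 0.147 and 0.933 in Pctp-/- livers, and on MCD of 10.6, 8.69 and 9.21 in WT and 7.28, 3.71 and 3.66 in Pctp-/- livers. The order was the same, and S100a9 rose by 3.00 in WT (standard error 0.26, adjusted p = 2.16e-06) and by 1.73 in Pctp-/- livers (standard error 0.26, adjusted p = 0.000172). Calprotectin is best known from neutrophils, and monocytes express it too. Of 11 other neutrophil markers, 9 were under an FPKM of 0.5 in every liver, and only Csf3r passed the filter. It rose by 0.70 on MCD in WT livers, and in Pctp-/- livers its log2 fold change was 0.33, which was not called. Over all genes above 0, 3 of the 11 were called higher on MCD in WT and 0 lower, beside 21.3% and 13.1% of all genes. In Pctp-/- livers 0 were called higher and 1 lower, beside 15.6% and 13.3%. The summed FPKM of the 11 markers was 0.346 to 1.38 in WT chow, 0.441 to 1.49 in Pctp-/- chow, 2.29 to 2.36 in WT MCD and 0.855 to 2.12 in Pctp-/- MCD livers, and the part of neutrophils in the result was not tested.

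MHC class II genes, which present peptides to T cells, were called in 0 of 4 cases in either genotype by limma, with 0 at an unadjusted p under 0.05. Cd74, the invariant chain, had an FPKM of 93.8, 45.3 and 75.1 in WT chow and 81.7, 41.6 and 70.0 in WT MCD livers, and of 134, 59.1 and 125 in Pctp-/- chow and 61.0, 58.0 and 79.4 in Pctp-/- MCD livers. Mouse 2 was the lowest in each of the 4 groups, and the diets overlapped in both genotypes. The log2 fold change of Cd74 on MCD was -0.14 (95% interval -0.88 to 0.60) in WT and -0.60 (95% interval -1.34 to 0.14) in Pctp-/- livers. Those of H2-Aa, H2-Ab1 and H2-Eb1 were 0.20, -0.42 and 0.20 in WT and 0.16, -0.74 and -0.34 in Pctp-/- livers. The result in Pctp-/- livers changed with the fit. Without Pctp-/- chow mouse 2, Cd74 (-0.97, adjusted p = 0.025), H2-Ab1 (-1.14, adjusted p = 0.0103) and H2-Eb1 (-0.56, adjusted p = 0.0202) were called lower on MCD. With that mouse kept, a fit with the replicate block called Cd74 (adjusted p = 0.0168), H2-Ab1 (adjusted p = 0.00908) and H2-Eb1 (adjusted p = 0.0473) lower. The block treats mice of the same number as matched, though the numbers name different mice. It also takes up the low values of mouse 2, so its calls are not separate from the fit without that mouse. Quantile normalization called H2-Eb1 lower (adjusted p = 0.0485).

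Lymphocyte genes stayed low. Cd4 had an FPKM of 0.237 to 1.02 over the 12 livers and Nkg7, a granule protein of killer cells, 0 to 1.18, and neither was called on MCD in either genotype. Without Pctp-/- chow mouse 3 Cd4 was called lower on MCD in Pctp-/- livers (-0.51, adjusted p = 0.017), and without Pctp-/- chow mouse 2 Nkg7 was called higher in WT livers (adjusted p = 0.0451). The T cell genes Cd3e and Cd8a were under the filter, with an FPKM of at most 0.623 and 0.392 in any liver. Over all genes above 0, Cd8a was called higher on MCD in Pctp-/- livers (log2 fold change 0.27, adjusted p = 0.0234), at 0.0953, 0 and 0.0663 on chow and 0.238, 0.198 and 0.392 on MCD, and Cd3e was not called. On MCD Cd8a was also higher in each Pctp-/- than in each WT liver (0.0671, 0.0809 and 0.0672), the only gene of the 54 placed so, and it was not called between the genotypes (0.25, adjusted p = 0.218).

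**Figure D2:**
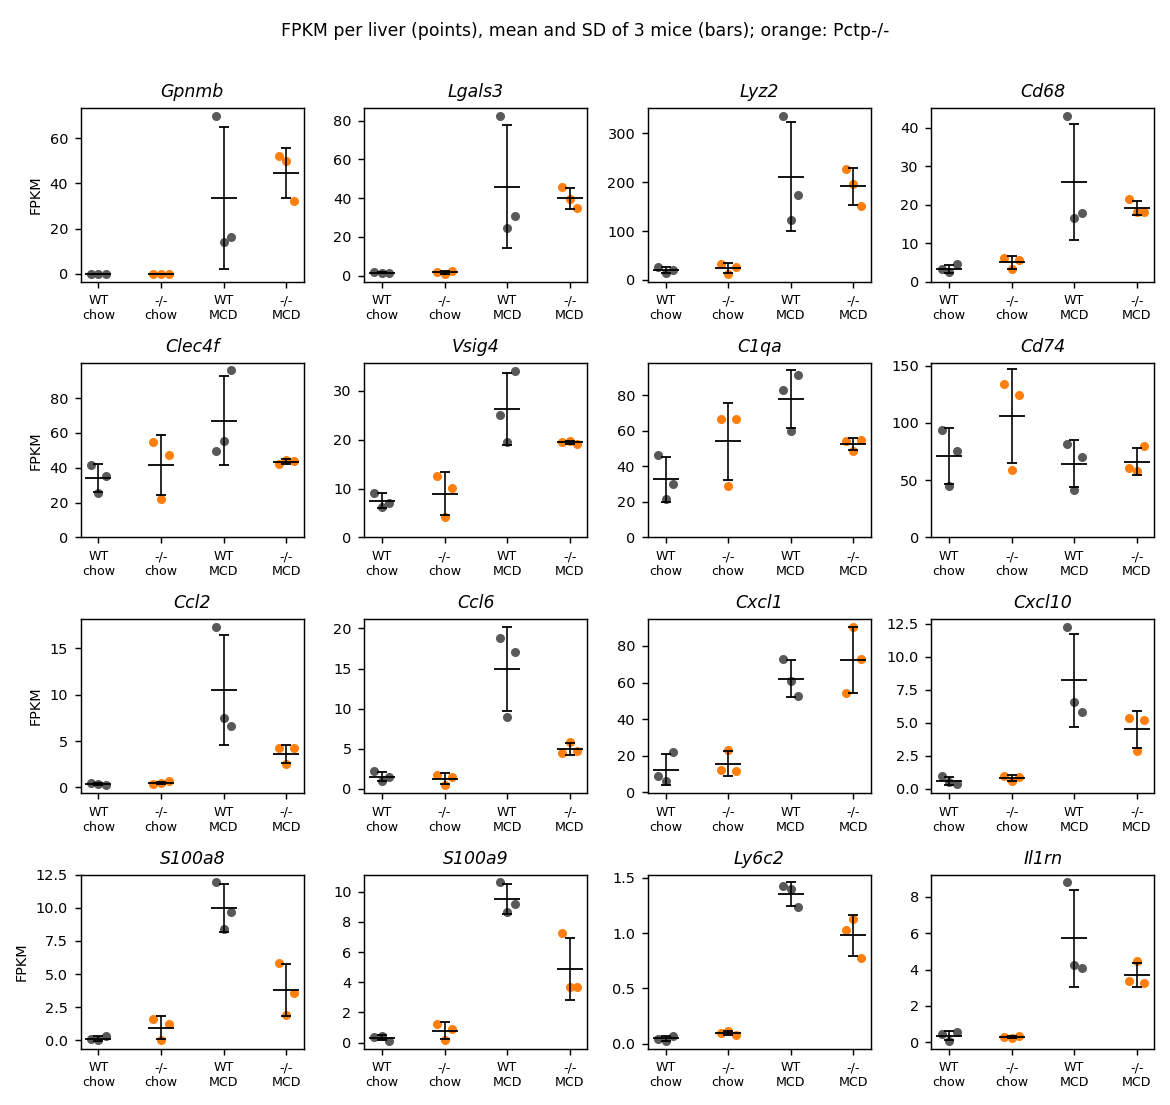
FPKM of 16 genes of the list in each liver (points; grey WT, orange Pctp-/-) with the mean and SD of the 3 mice of a group (bars), on linear axes. The MCD livers lie above the chow livers for most genes. WT MCD mouse 1 is far above the others of its group for Gpnmb, Lgals3 and Ccl2. On MCD every Pctp-/- liver lies below every WT liver for Clec4f, C1qa, Ccl2, Ccl6, Cxcl10, S100a8, S100a9 and Ly6c2.

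The rise on MCD was then compared between the genotypes, as the design asks whether the response to the diet depends on PC-TP. The fold change of FPKM + 1 was smaller in Pctp-/- than in WT livers for 44 of the 49 genes tested (89.8%, beside 64.6% of all genes tested). The median difference was -0.48 on the log2 scale beside -0.10 over all genes tested. The fold change was larger for 5, Gpnmb, Cxcl9, Ccl5, Itgax and Trem2. Genes near 0 on chow can change side on another scale. The ratio of mean FPKM on MCD to chow was larger in Pctp-/- livers for Ccl3 (43.6 against 19.6 in WT) and smaller for Itgax (22.9 against 30.9). None of the differences passed the test. By limma, 0 of the 49 genes were called for the difference of the responses, where 0.0401% and 0.0562% of all genes tested were called higher and lower. An unadjusted p under 0.05 was found for 9 of the 49 (18.4%, beside 15.1% of all genes tested). The largest differences by size were in S100a8 (-1.94, 95% interval -3.01 to -0.87, adjusted p = 0.132), Ccl2 (-1.32, 95% interval -2.16 to -0.47, adjusted p = 0.155), S100a9 (-1.27, 95% interval -2.06 to -0.47, adjusted p = 0.148), C1qa (-1.22, 95% interval -2.19 to -0.26, adjusted p = 0.222) and Ccl6 (-1.15, 95% interval -2.03 to -0.28, adjusted p = 0.205), named after their values were seen. The median turned on single mice, at -0.75 without Pctp-/- chow mouse 2, where 23 genes had an unadjusted p under 0.05, and -0.29 without WT MCD mouse 1. The number at an unadjusted p under 0.05 was also 15 without WT chow mouse 1 and 17 without WT MCD mouse 2. Without WT MCD mouse 1, 36 of 46 genes had the smaller fold change in Pctp-/- livers and Gpnmb was called for a larger one (1.49, adjusted p = 0.0445). Of the genes called higher on MCD, 27 were called in both genotypes, which is 69.2% of the WT calls and 96.4% of the Pctp-/- calls. Being called in 1 genotype alone, as 12 genes were in WT and Cxcl9 in Pctp-/- livers, is not a difference between them, and the test of the difference did not pass for any of these.

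**Figure D3:**
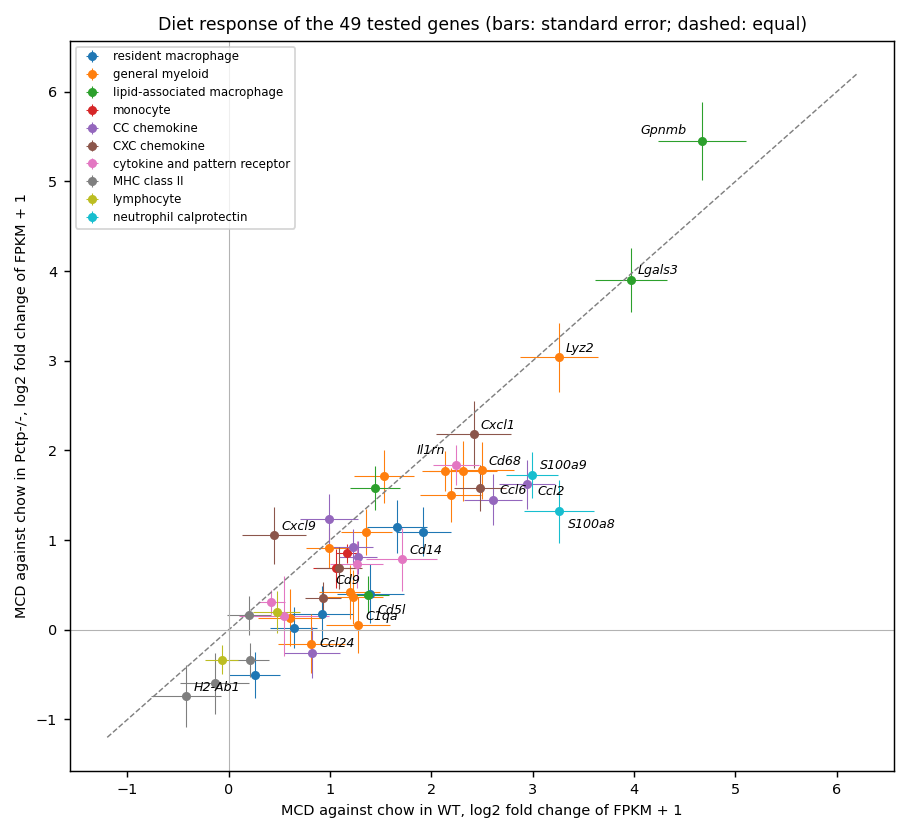
Log2 fold change of FPKM + 1 on MCD against chow in Pctp-/- livers (vertical) against that in WT livers (horizontal) for the 49 genes tested, with standard errors and a dashed line of equal change. Most points lie below the line, Gpnmb (4.67 in WT, 5.45 in Pctp-/-) above it, and S100a8 (3.26 and 1.32) farthest below it.

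The effect of the knockout was compared within each diet. For 17 of the 49 genes tested, beside 21.1% of all genes tested, every Pctp-/- MCD liver was below every WT MCD liver. Ccl6, Ccl2, Cd9, S100a8 and S100a9 were among them, but no gene of the list passed the test. By limma, 0 of the 49 genes were called in either direction, 12 (24.5%, beside 16.3% of all genes tested) had an unadjusted p under 0.05, and 0.297% of all genes tested were called higher and 0.521% lower, a split of 37 to 65 that was 69 to 41 after quantile normalization and 25 to 30 with median-of-ratios scaling. Ccl6 had a mean FPKM of 14.9 ± 5.27 (SD, n = 3) in the WT group, against 5.01 ± 0.760 (SD, n = 3) in the knockout group (log2 fold change -1.35, 95% interval -1.97 to -0.73, adjusted p = 0.0531). It was called in 6 of 23 alternative fits, where its adjusted p was 0.0262 to 0.176, among them without WT MCD mouse 2 (-1.66, adjusted p = 0.0262), without Pctp-/- chow mouse 2 (adjusted p = 0.0355) and without Pctp-/- chow mouse 1 (adjusted p = 0.0468). Ccl2 had a mean of 10.5 ± 5.95 (SD, n = 3) and 3.64 ± 0.979 (SD, n = 3) in WT and Pctp-/- livers (log2 fold change -1.21, 95% interval -1.81 to -0.62, adjusted p = 0.0728), and its adjusted p was 0.0321 to 0.286 in the alternatives, with a call without WT MCD mouse 3 alone (-1.45). For S100a8 the log2 fold change was -1.27 (95% interval -2.03 to -0.51, adjusted p = 0.109), for Cd9 -0.84 (95% interval -1.29 to -0.39, adjusted p = 0.0877) and for S100a9 -0.89 (95% interval -1.45 to -0.33, adjusted p = 0.127). Gpnmb went the other way, with a log2 fold change of 0.75 (95% interval -0.20 to 1.69, adjusted p = 0.422), and without WT MCD mouse 1 it was called higher in Pctp-/- livers (1.46, adjusted p = 0.00431). These genes other than Gpnmb were named for their small p after their values were seen.

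Across the list on MCD, 39 of the 49 genes (79.6%, beside 70.3% of all genes tested) had a negative log2 fold change, with a median of -0.29 beside -0.09 over all genes tested. After quantile normalization it was 35 of 49, with a median of -0.27 beside -0.004 over all genes, and without WT MCD mouse 1 it was 28 of 46, with a median of -0.14. Without WT MCD mouse 2, whose values were low, it was 45 of 49 and -0.52. The genotypes did not overlap, with Pctp-/- lower, for 17 of the 49 genes tested, beside 21.1% of all genes tested, and with Pctp-/- higher for 0, beside 5.5%. All 6 Kupffer cell markers had a negative log2 fold change, from -0.71 for Cd5l to -0.38 for Vsig4, and of these Folr2 and Marco had an unadjusted p under 0.05. WT MCD mouse 3 was the highest of its group for all 6 markers. Their summed FPKM was 150.9, 144.8 and 248.9 in WT and 108.7, 114.6 and 121.6 in Pctp-/- livers. The MHC class II genes H2-Aa, H2-Ab1 and Cd74 were on the positive side, at 0.39, 0.20 and 0.08. The remaining class II gene, H2-Eb1, was at -0.33 (adjusted p = 0.431), with each Pctp-/- liver below each WT liver. Markers of other liver cells were set beside these. Summed stellate cell markers were 152.5 to 220.0 in WT and 153 to 179 in Pctp-/- livers, and summed sinusoidal endothelial markers 86.5 to 108 and 75.99 to 89.73. The log2 fold change was negative for 7 of 8 stellate cell markers (median -0.35) and for 8 of 8 endothelial markers (median -0.18). Summed hepatocyte markers did not overlap, at 53560 to 60560 in WT and 68570 to 74640 in Pctp-/- livers. Most of each sum was Alb, at 43960, 41400 and 46340 in WT and 61590, 54600 and 55460 in Pctp-/- livers. The 7 hepatocyte markers had log2 fold changes of -0.07 to 0.38, 2 of them negative, and none was called. The part of these other liver cells in the result was not tested.

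On chow, no gene of the list was called between the genotypes by limma, beside 0.0562% of all genes called higher and 0.0802% lower. An unadjusted p under 0.05 was found for 0 of the 49, beside 6.98% of all genes tested. The log2 fold change was positive for 42 of 49 genes (85.7%, beside 51.8% of all genes tested), with a median of 0.18 beside 0.006 over all genes tested. The size turned on single mice. Without Pctp-/- chow mouse 1 it was positive for 29 of 48, with a median of 0.03, without WT chow mouse 2 for 34 of 49, with a median of 0.05, and without Pctp-/- chow mouse 2 for 44 of 49, with a median of 0.40 and 16 genes at an unadjusted p under 0.05. The median was 0.28 without WT chow mouse 1 and 0.12 without Pctp-/- chow mouse 3. C1qa had the largest difference, 0.68 (95% interval -0.01 to 1.36, adjusted p = 0.714), followed by S100a8 at 0.67 (95% interval -0.09 to 1.43, adjusted p = 0.763). The FPKM of Ly6c2 and Ccl4 was higher in each Pctp-/- liver than in each WT liver on chow, which makes 2 of 49 genes beside 5.17% of all genes tested, at levels of at most 0.114 and 0.602.

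**Figure D4:**
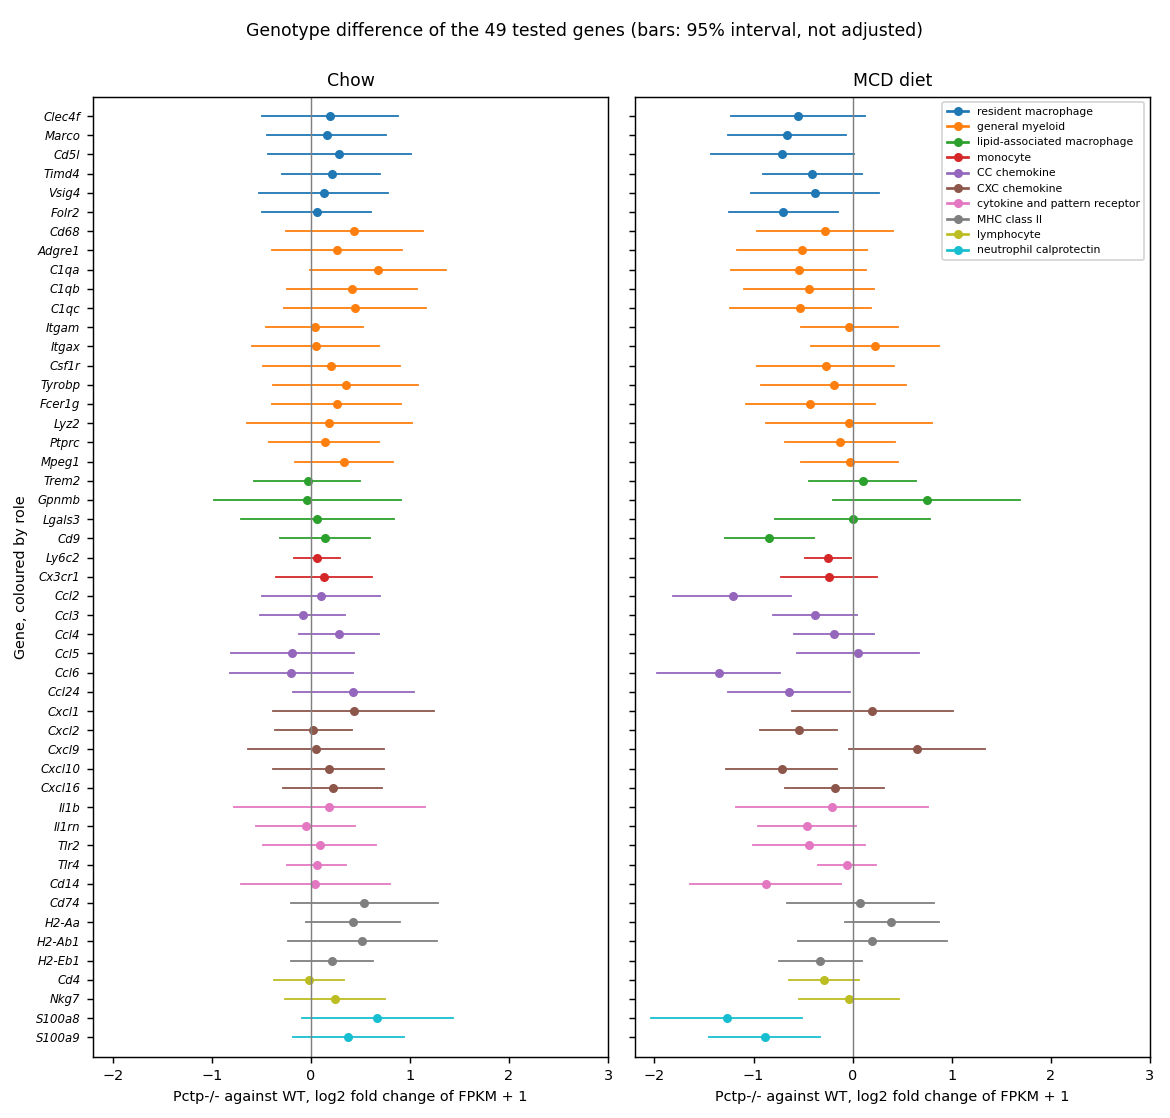
Log2 fold change of FPKM + 1 in Pctp-/- against WT livers on chow (left) and on MCD (right) for the 49 genes tested, with 95% intervals that are not adjusted for the number of genes. On chow 42 points lie right of 0 with intervals that include it, and on MCD 39 lie left of 0, Ccl6 (-1.35) and S100a8 (-1.27) farthest.

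Some of the chemokine genes are neighbours of Pctp. Ccl2, Ccl3, Ccl4, Ccl5 and Ccl6 lie on chromosome 11, 6.32 to 7.95 Mb from Pctp (chromosome 11, 89982665 to 90002894, minus strand). A neighbour that is no member of the list, Ccl9, had an FPKM of 12.6, 16.1 and 16.5 in WT and 32.1, 29.4 and 33.2 in Pctp-/- livers on chow, and of 18.4, 12.2 and 15.9 and 27.7, 30.5 and 36.2 on MCD. Each Pctp-/- liver was above each WT liver on both diets, and Ccl9 was called higher in Pctp-/- livers on chow (1.03, adjusted p = 0.0249) and on MCD (0.99, adjusted p = 0.0122), where Ccl6 and Ccl2 had negative log2 fold changes on MCD. Its log2 fold change on MCD was 0.03 in WT and -0.01 in Pctp-/- livers, and neither was called. The part that position near Pctp had in these values was not tested.

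Related genes of the same pathways were set beside the shares of all genes tested. In these lists and those below, a gene given for 1 genotype was not among the 3 largest changes called in the other. That is not a difference between the genotypes. On MCD these shares were 34.5% called higher and 22.5% lower in WT, and 26% and 24.4% in Pctp-/- livers. Of 42 other macrophage genes tested, 30 were called higher and 2 lower on MCD in WT, and 21 and 3 in Pctp-/- livers. The protease Mmp12 rose by 4.45 in WT and 4.45 in Pctp-/-, the tetraspanin Cd63 by 3.53 in WT and 3.15 in Pctp-/-, lipoprotein lipase Lpl by 3.52 in WT and the lysosomal proton pump subunit Atp6v0d2 by 4.08 in Pctp-/- livers. Of 6 chemokine receptors tested, 4 were called higher on MCD in WT (Cxcr4 by 1.18 and Ccr3 by 0.65 among them), and 2 higher and 1 lower in Pctp-/- livers, Cxcr4 by 1.01, Ackr4 by 0.44 and the decoy receptor Ackr2 by -0.70. Of 11 other chemokines, 5 were called higher and 3 lower in WT, and 3 and 2 in Pctp-/- livers. Cxcl14 rose by 1.52 and Ccl7 by 1.46 in WT, Pf4 by 0.80 in Pctp-/-, Ccl27a changed by -1.42 in WT and -0.82 in Pctp-/-, and Ccl25 by -1.31 in Pctp-/- livers. Ccl7, like Ccl2 a ligand of Ccr2, was listed at 0 in all 6 chow livers.

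In the class II pathway, 4 of 6 genes tested were called higher on MCD in WT, and 3 higher and 1 lower in Pctp-/- livers. The cathepsin Ctss rose by 2.95 in WT and 2.66 in Pctp-/- livers, Cd83 by 1.31 and 0.85 and the protease Lgmn by 1.17 in WT, while H2-DMa, which loads peptides, changed by -0.77 in Pctp-/- livers. In the NF-kB and Toll-like receptor pathway, 15 of 33 genes were called higher and 6 lower in WT, and 12 and 8 in Pctp-/- livers. The shares of all genes tested were 34.5% higher and 22.5% lower in WT, and 26% and 24.4% in Pctp-/- livers. Ly96, the co-receptor of Tlr4, rose by 1.52 and 1.13 and Tlr13 by 1.23 and 1.04 in WT and Pctp-/- livers, and the NF-kB subunit Rela changed by -1.17 and -1.34. Between the genotypes, Ccl9 was the only gene called in these 5 lists on either diet.

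Markers of other cells were compared between the diets too, and their part in the results above was not tested. Of all genes tested, 34.5% were called higher and 22.5% lower on MCD in WT, and 26% and 24.4% in Pctp-/- livers. Stellate cell markers were called higher on MCD in 5 of 8 cases in WT and 4 of 8 in Pctp-/- livers, Dcn by 2.07 and 1.83, Lrat by 1.41 and 1.03 and Rgs5 by 1.16 and 0.98, and their summed FPKM was 39.4 to 67.6 over the chow and 152.5 to 220.0 over the MCD livers. Of 7 hepatocyte markers, 2 were called higher and 4 lower in WT and 2 and 3 in Pctp-/- livers, Alb by 0.66 and 1.02, Ass1 by -1.12 and -0.90 and Hnf4a by -1.10 and -0.87. Sinusoidal endothelial markers were called higher in 4 and lower in 1 of 8 cases in WT and 1 and 1 in Pctp-/- livers, with Fcgr2b at 1.04 and 0.97, Oit3 at 0.78 and Lyve1 at 0.69 in WT and Stab1 at -0.51 in Pctp-/- livers. Of 4 cholangiocyte markers tested, Spp1, which macrophages also express, rose by 0.75 in WT and Sox9 changed by -1.17 in Pctp-/- livers. Of 4 erythroid markers, 2 were called lower in each genotype, Hba-a1 by -1.26 and -1.51 and Hbb-bt by -0.78 and -0.97. B cell markers were called in 0 of 3 cases, with 0 in WT and 1 in Pctp-/- livers at an unadjusted p under 0.05 by limma, and of 2 T and NK cell markers Klrd1 rose by 0.98 in WT livers. Between the genotypes, no gene of these 8 lists was called by limma on either diet, with 1 on chow and 3 on MCD at an unadjusted p under 0.05.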

How the data were processed

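RNA of whole liver from 12 mice was sequenced by Novogene. The deposited values are FPKM per gene and library, 1 column a liver, made by the authors. The build named in the submitters' processing notes is mm10, and the aligner, counter and annotation are not given in the sources used here. A second deposited table of other quality measures gave the read totals. The study tested counts with a Wald test, and since FPKM are not counts, log2(FPKM + 1) was fitted here with limma 3.58.1 in R 4.3.3 (empirical Bayes with a mean-variance trend, all 12 libraries in 1 fit of 4 groups, 2-sided, Benjamini-Hochberg over all genes tested). The labels give no statement on litters or cages, so p-values measure the spread between these mice. An exact permutation test of 3 against 3 cannot go below 0.1 and was not used.

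The filter kept genes whose FPKM averaged 0.5 or more. Symbols and positions came from GENCODE M21 (GRCm38), and 14 of the 54 genes share bases with a further gene model, in 6 cases on their own strand. No 2 libraries held identical values. The members and lists were chosen with earlier results of these data known. Values in every library with full statistics were given by rule for the 8 largest rises called in each diet comparison and for any gene called between genotypes. At most 3 genes were named for each other list by the size of their change among those called. Other genes named were chosen after their values were seen. The fitting code was tested on simulated data. The alternatives were pseudocounts of 0.1 and 0.5, other filters, scalings and variance models, a replicate block, and leaving out each library, with the fit without both chow mice numbered 2 added after seeing the data.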

Additional observations from a re-analysis of the deposited data

How the results depend on the processing

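No alternative turned the direction of a called diet change. Of the genes called higher on MCD, 33 of 39 in WT and 24 of 28 in Pctp-/- livers were called under every alternative that tested them, and the calls lost under some were C1qc, Ccl24, Ccl5, Clec4f, Timd4 and Tlr4 in WT and Cx3cr1, Cxcl16, Cxcl9 and Tlr2 in Pctp-/- livers. The number called higher was 27 to 40 in WT and 19 to 31 in Pctp-/- livers over all alternatives, lowest with a mean FPKM of at least 2, which tests fewer genes. No gene was called lower in WT, and 5 alternatives called 1 to 4 genes lower in Pctp-/- livers (Cd4, Cd74, Folr2, H2-Ab1 and H2-Eb1), among them the replicate block, with 30 higher and 3 lower. Median-of-ratios scaling moved the median of all genes for MCD in WT by 0.112, to -0.003, and the split of all calls from 4300 higher and 2810 lower to 3534 and 3528, with 35 genes of the list called higher. Genes of the list called for the knockout on MCD went from 0 to 1 with a mean FPKM of at least 2 (Ccl6), to 2 with the replicate block (Ccl6 and S100a8) and to 1 without both chow mice numbered 2 (Ccl6), and were 0 to 1 when each library was left out. For the difference of the responses, 1 gene was called with the replicate block (S100a8, adjusted p = 0.0393) and 0 to 1 when each library was left out. On chow 0 were called under every alternative. The numbers name different mice. Same-numbered livers had correlations of deviations of -0.021 to 0.199 for mouse 1, -0.097 to 0.225 for mouse 2 and 0.005 to 0.115 for mouse 3, so they were not taken as pairs, and the fit of the difference to the libraries of 1 comparison was not run because it needs all 12. The values hold no counts, so that no counting interval was given, and genes near an FPKM of 0 have changes that depend on the pseudocount.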
